A study of Mus musculus with 8 samples.

Results

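G protein-coupled receptors (GPCRs) for monoamines, acetylcholine, nucleotides, lysophospholipids and some peptides, together with the Gpr-named receptors, many of which are orphans without an agreed ligand, were examined in dorsal root ganglia (DRG) of E18.5 mouse embryos. The genes were chosen by symbol (Adra, Adrb, Chrm, Drd, Gpr, Htr other than the Htr3 channels, P2ry, Sstr, Npy, Cckar, Cckbr, Lpar and S1pr) and by a mean of at least 0.5 CPM (a count divided by the size of its library) over the 8 libraries. Of 55414 listed genes, 138 had such a symbol, 104 of these reached the level, and all 104 were among the 17721 genes tested. The mean level was the only measured value in the rule, but the set was proposed with results of these data in view, so its counts are a description and not an independent test. Just above the limit lay Adrb1 at 0.508, Gpr141 at 0.514 and Gpr174 at 0.560 CPM, and just below it Gpr119 at 0.477, Drd3 at 0.466 and Gpr50 at 0.405 CPM.

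A GPCR passes the binding of its ligand to heterotrimeric G proteins. Receptors that act through Gi/o dampen adenylyl cyclase and transmitter release, those that act through Gq/11 activate phospholipase C, and those that act through Gs raise cyclic AMP. In DRG neurons such receptors set the excitability of the endings in skin and viscera and the release of transmitter in the spinal cord, and several are used as markers of single nociceptor classes. A Gpr name does not always mean a GPCR: Gpr89, Gpr107, Gpr108, Gpr137 and Gpr155 carry the name but are not classical receptors of this family. They were kept by name, and the term receptor genes below includes them.

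The ganglia came from 2 groups of 4 embryos. AD1 OE embryos (AdvillinCre/+;Rosa26Dach1/+) carried Cre at one allele of Advillin, a gene active in peripheral sensory neurons, and a Rosa26 allele that drives Dach1 with EGFP where Cre cuts out a stop cassette. Control embryos (Advillin+/+;Rosa26Dach1/+) carried the same Rosa26 allele without Cre, so that AD1 OE and control differ in both Cre and Dach1. The Rosa26Dach1 line was kept on a mixed C57Bl/6J and CD1 background. The comparison asked which transcripts differ when Dach1, a transcription factor that most DRG neurons switch off before birth, is expressed broadly in late embryonic sensory neurons.

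The libraries held 22339059 to 44025625 counts. Dach1 lay at 91.5 to 102 CPM in AD1 OE and 30.2 to 33.7 CPM in control, and Avil at 450 to 478 against 840 to 919 CPM. By sex-linked genes 3 of the 4 AD1 OE and 1 of the 4 control embryos were male, so sex and genotype were partly aligned. Of 11 pan-neuronal and 12 glial markers the edgeR test called 0 (3 and 2 at an unadjusted p under 0.05). Of 10 tested markers of non-peptidergic nociceptors 6 were called lower (among them Mrgprd, Mrgpra3, Mrgprx1, Scn10a and Gfra2), against 1.78% of all tested genes. Another 2 had all AD1 OE libraries above control without a call. Of 8 markers of peptidergic nociceptors 3 were called lower (Calca, Tac1, Adcyap1) and 1 higher (Gal). Other sensory neuron lists held calls too. Markers of TrkB low-threshold mechanoreceptors had 2 of 8 lower (Shox2, Mafa) and 1 higher (Mef2c), and those of proprioceptors 1 of 7 lower (Etv1). Those of C low-threshold mechanoreceptors had 1 of 5 lower (Gfra2, on both lists) and 1 higher (Th). The summed level of the non-peptidergic list was 2767 to 3045 CPM in AD1 OE and 3359 to 3834 CPM in control, and that of the peptidergic list 1135 to 1238 against 1423 to 1455 CPM. The study counted neurons stained for Islet1, TrkB, TrkC and the nociceptor marker Prdm12 in AD1 OE embryos at E18.5. It reported appropriate numbers of these main types. RNA of whole ganglia alone cannot tell fewer cells of a narrower type from less RNA per cell. The part of the listed nociceptor markers in the receptor results was not tested.

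Among the 104 receptor genes, 8 passed the test as lower and 2 as higher in AD1 OE. A gene was called at a Benjamini-Hochberg adjusted p under 0.005 in the edgeR quasi-likelihood test together with a log2 fold change beyond 0.25 in size. Lower were the lysophosphatidic acid (LPA) receptors Lpar3 and Lpar5, the serotonin receptors Htr1b and Htr2c, the neuropeptide Y receptor Npy2r, the muscarinic receptor Chrm2 and the orphans Gpr149 and Gpr179. Higher were the muscarinic receptor Chrm1 and the cholecystokinin receptor Cckar. This is 7.69% of the receptor genes lower and 1.92% higher, against 1.78% and 0.784% of all tested genes, and 2.57% of all tested genes in either direction. The median log2 fold change was -0.02 over the 104 genes and 0.00 over all tested genes, 62 of the 104 estimates being negative and 42 positive. All 4 AD1 OE libraries lay below all 4 control libraries for 15 receptor genes, and above them for 9, where the shares over all tested genes were 7.26% and 5.69%. The 15 include Gpr174, which reached the level limit only through control. Limits of 0.25 and 1 CPM gave 113 and 90 genes with the same 8 lower and 2 higher calls. The higher calls fell to 0 with a sex score in the fit, without AD1 OE replicate 1 and without control replicate 2, where 7 lower calls remained. Summed over the 104 genes, AD1 OE libraries held 1712 to 1730 CPM (1724 ± 8.48, SD, n = 4) and control libraries 1778 to 1791 CPM (1784 ± 5.44), with no overlap. The sum includes the 8 lower and 2 higher called genes, so it is no separate sign of a fall over the set.

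**Figure D1:**
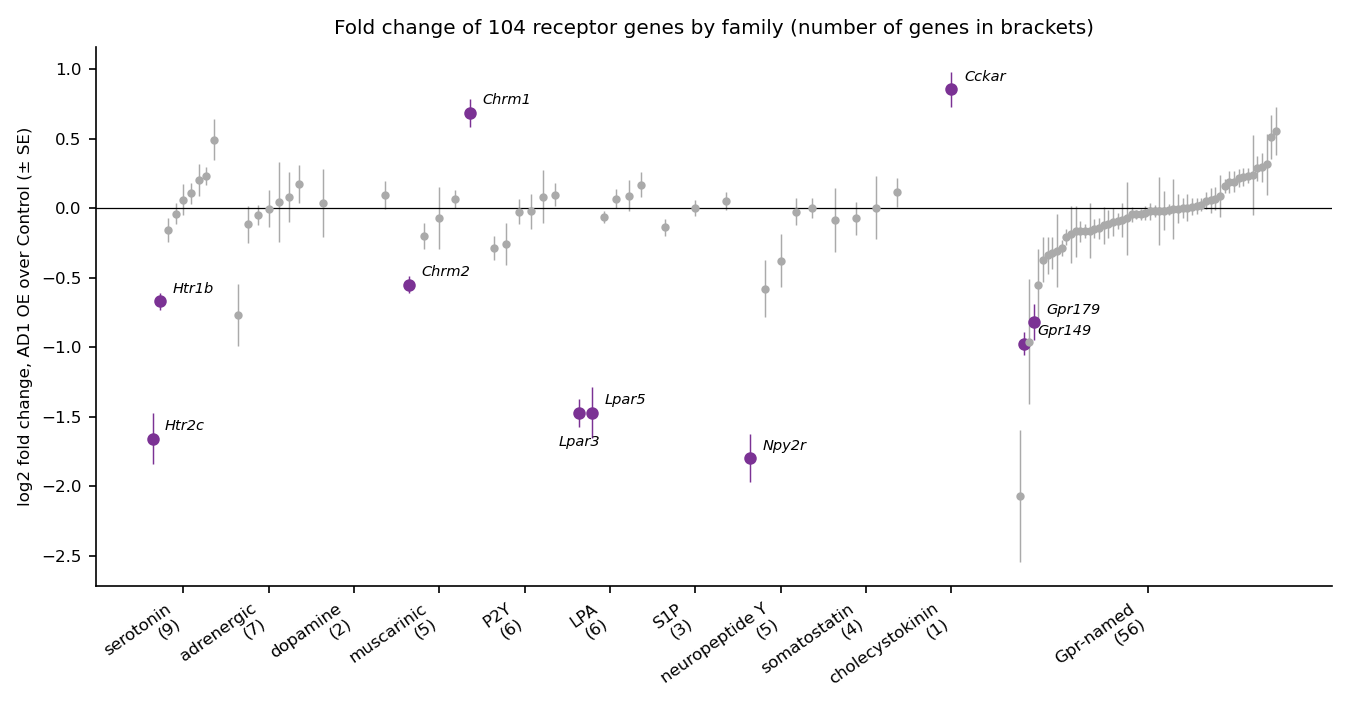
Log2 fold change of AD1 OE over control (y axis, points with SE bars) for the 104 receptor genes, grouped by family along the x axis with the number of genes in brackets. The 10 called genes are purple and named, 8 of them lying below 0 and 2 above, and within most families they stand beside members that lie near 0.

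LPA receptors. The 6 members Lpar1 to Lpar6 answer to LPA, a lysophospholipid made outside the cell by autotaxin that activates nociceptive and itch fibres. Lpar3 and Lpar5 fell, and the other 4 were not called. Lpar3 (ENSMUSG00000036832), known from the Mrgprd class of nociceptors, measured 3.10, 2.36, 2.91 and 2.55 CPM in AD1 OE and 7.47, 7.88, 7.55 and 7.68 CPM in control. The control libraries were close together (7.64 ± 0.180 CPM, SD, n = 4), and every AD1 OE library lay far below them (2.73 ± 0.333 CPM). The log2 fold change was -1.47 ± 0.10 (SE, 95% interval -1.69 to -1.25), with an adjusted p of 4.4e-06, so that AD1 OE held 35.7% of the control level. Lpar5 (ENSMUSG00000067714) measured 1.31, 0.802, 0.842 and 1.19 CPM against 2.92, 3.43, 2.44 and 2.94 CPM. The groups did not overlap, and the log2 fold change was -1.47 ± 0.19 with an adjusted p of 0.000426. The remaining LPA receptors had log2 fold changes from -0.06 (Lpar1) to 0.17 (Lpar6), each with overlapping libraries. Lpar1, a receptor also made by Schwann cells, was the highest of all 104 genes per length, at 26.6 ± 1.37 CPM per kb of exon (SD over 8 libraries), where Lpar3 lay at 2.11 and Lpar5 at 1.31 CPM per kb. The 95% interval of the Lpar1 log2 fold change ran from -0.16 to 0.04. Per library, the log2 ratio of Lpar3 to Lpar1 was -5.36 ± 0.23 in AD1 OE and -3.93 ± 0.10 in control. These ratios are given as a description, without a test. That of Lpar5 to Lpar1 was -6.78 ± 0.37 against -5.33 ± 0.22.

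The start regions of Lpar3 and Lpar5, the LPA receptors that fell to about the same share of control, are shown because both belong to one family and yet differ in composition. RefSeq windows of 300 bases (250 before and 50 after an annotated start, build GRCm38.p6) were at hand for 75 of the 104 genes and for 7 of the 10 called ones (Chrm2, Gpr179, Htr1b, Htr2c, Lpar3, Lpar5, Npy2r). Capitals mark TGTGGT, the core that Runx factors bind, searched on both strands. Lpar3 lies on the plus strand at chr3:146220711-146221010, and the starts of Lpar5 on the plus strand at chr6:125067670-125067969 and chr6:125071085-125071384.
Lpar3: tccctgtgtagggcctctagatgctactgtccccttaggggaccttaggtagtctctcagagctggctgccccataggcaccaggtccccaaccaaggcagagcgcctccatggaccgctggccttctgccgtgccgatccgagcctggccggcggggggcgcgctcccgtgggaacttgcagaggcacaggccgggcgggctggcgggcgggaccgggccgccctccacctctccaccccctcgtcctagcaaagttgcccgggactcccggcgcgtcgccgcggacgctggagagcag
Lpar5, first start: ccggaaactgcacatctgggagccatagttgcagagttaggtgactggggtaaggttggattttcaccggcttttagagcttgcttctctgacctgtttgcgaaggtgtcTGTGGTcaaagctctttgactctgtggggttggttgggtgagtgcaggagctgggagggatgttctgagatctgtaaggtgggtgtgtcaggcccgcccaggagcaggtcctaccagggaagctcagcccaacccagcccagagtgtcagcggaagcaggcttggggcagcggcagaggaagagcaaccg
Lpar5, second start: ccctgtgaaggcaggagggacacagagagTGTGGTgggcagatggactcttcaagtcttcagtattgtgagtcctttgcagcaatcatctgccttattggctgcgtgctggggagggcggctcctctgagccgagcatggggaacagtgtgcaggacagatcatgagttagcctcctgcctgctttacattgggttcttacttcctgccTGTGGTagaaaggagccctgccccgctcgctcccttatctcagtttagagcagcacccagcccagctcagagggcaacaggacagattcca
The Lpar3 window is 70.3% G and C with 25 CpG dinucleotides, and the Lpar5 windows 57.3% and 56% with 7 and 5, where the median over 32851 windows was 52.7% G and C. The Runx core is found 1 time in the first and 2 times in the second Lpar5 window and 0 times in those of the other called genes. It occurs in 16.8% of all windows and in 19% of the 100 windows of the receptor genes, so its presence is common. The TATA box TATAAA (13.6% of all windows), the cyclic AMP element TGACGTCA (1.79%) and the homeodomain core TAATTA (5.29%) were in 0 of the windows of the called genes.

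Neuropeptide Y receptors. Npy2r (ENSMUSG00000028004), a Gi/o-coupled receptor at presynaptic endings, had the steepest fall of the called genes. It measured 3.19, 1.69, 2.26 and 2.41 CPM in AD1 OE and 6.66, 9.0, 8.25 and 9.94 CPM in control. The highest AD1 OE library lay well below the lowest control library. The log2 fold change was -1.80 ± 0.17 (interval -2.17 to -1.42), with an adjusted p of 5.29e-05 by the edgeR test. Npy1r, the most abundant receptor of the family per length (6.31 CPM per kb of exon against 1.60 for Npy2r), measured 21.8 ± 1.80 and 21.8 ± 1.44 CPM, and the interval of its log2 fold change ran from -0.16 to 0.16. The estimates of all 5 members were at or below 0 (median -0.38), but the others did not pass. Npy4r had a log2 fold change of -0.58 ± 0.20 (adjusted p = 0.14) and Npy5r -0.38 ± 0.19 (adjusted p = 0.341), both at about 1 CPM and with libraries that did not overlap. The log2 ratio of Npy2r to Npy1r was -3.22 ± 0.33 in AD1 OE and -1.38 ± 0.28 in control.

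Serotonin receptors. Of 9 members, Htr1b and Htr2c fell and 0 were called higher. Htr1b (ENSMUSG00000049511), a Gi/o-coupled receptor on sensory terminals and a target of the triptans, measured 21.9, 22.6, 20.3 and 21.8 CPM in AD1 OE and 33.2, 36.5, 31.6 and 36 CPM in control. The spread within each group was small beside the difference between them (SD 0.954 and 2.35 CPM). The log2 fold change was -0.67 ± 0.06 (adjusted p = 3.53e-05), leaving 63.0% of the control level. Htr1b shares an exon with the transcript D430036J16Rik, and since strand use in counting is not stated its reads could include that transcript's. Htr2c (ENSMUSG00000041380), a Gq/11-coupled receptor, was low, at 0.995, 1.29, 0.918 and 0.648 CPM against 2.83, 3.15, 2.83 and 3.25 CPM, which is 18 to 44 counts per library against 63 to 115. The groups stood apart and the log2 fold change was -1.66 ± 0.18 (adjusted p = 0.000151). Htr2c lies on the X chromosome, and within sexes its log2 ratio was -1.73 in males (3 AD1 OE, 1 control) and -1.68 in females (1 AD1 OE, 3 control). With 1 embryo on a side, neither ratio has a measure of spread.

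Close relatives of these genes did not pass. Htr1d, paired with Htr1b in ligand and G protein, had a log2 fold change of -0.16 ± 0.09 (adjusted p = 0.388), and Htr2a, a relative of Htr2c, of -0.04 ± 0.08 (interval -0.21 to 0.13). The log2 ratio of Htr1b to Htr1d was 0.459 ± 0.119 in AD1 OE and 0.973 ± 0.167 in control, and that of Htr2c to Htr2a was -3.33 ± 0.41 against -1.68 ± 0.10. Htr7, a Gs-coupled receptor, measured 25.7 ± 0.948 against 21.9 ± 1.71 CPM and missed the threshold (log2 fold change 0.23, adjusted p = 0.0511). Htr5b came to 0.49 ± 0.15 (adjusted p = 0.0763), although its groups did not overlap. These 4 genes were chosen after their values were seen.

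Muscarinic receptors. The 5 acetylcholine receptors Chrm1 to Chrm5 were all expressed, and they moved in both directions. Chrm2 (ENSMUSG00000045613), coupled to Gi/o, measured 24.0, 24.4, 21.8 and 21.9 CPM in AD1 OE and 31.0, 33.9, 36 and 33.9 CPM in control. The ranges did not meet, and the log2 fold change was -0.55 ± 0.06 (adjusted p = 0.000174). Chrm1 (ENSMUSG00000032773), coupled to Gq/11, measured 12.7, 12.2, 11.5 and 15.5 CPM in AD1 OE and 7.11, 8.38, 7.90 and 8.73 CPM in control. The highest AD1 OE library stood above the other 3, and all 4 lay above control. The log2 fold change was 0.69 ± 0.10 (interval 0.47 to 0.91, adjusted p = 0.0013). The log2 ratio of Chrm1 to Chrm2 was -0.84 ± 0.23 in AD1 OE and -2.07 ± 0.10 in control, so that Chrm1 stood at 0.560 of the level of Chrm2 in AD1 OE and 0.238 in control, in CPM and without regard to length. Chrm3 (-0.20), Chrm4 (0.07) and Chrm5 (-0.07) were not called. Chrm4, the member with the highest level per length, lay at 10.9 ± 0.649 CPM per kb of exon. Chrm2 shares an exon with 9330158H04Rik and Chrm1 with Gm22820, so their counts are uncertain to that extent.

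**Figure D2:**
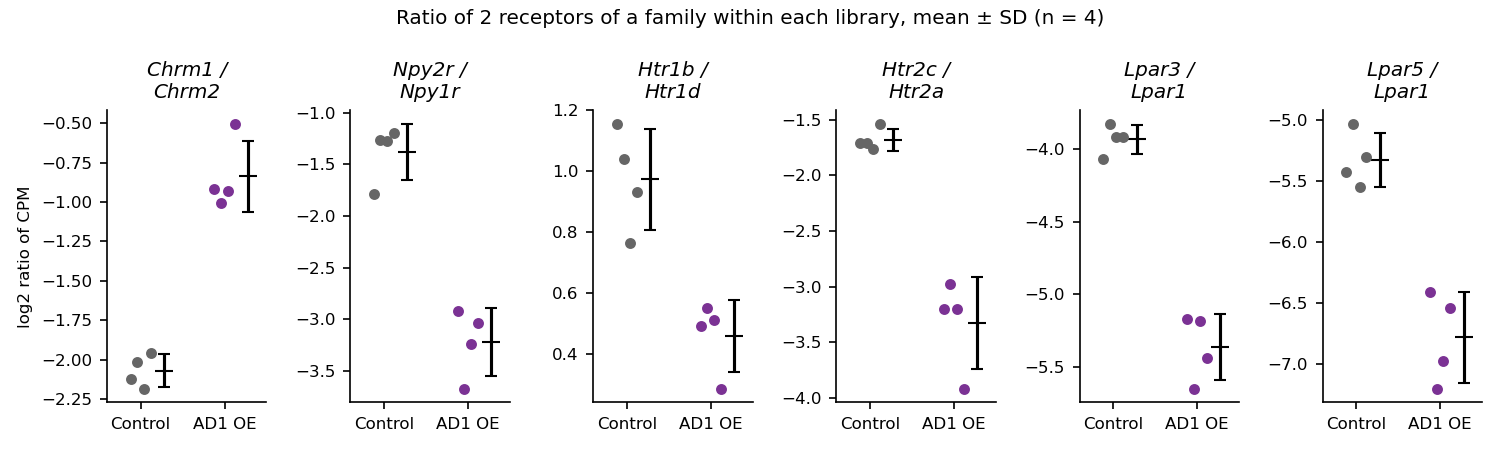
Log2 ratio of CPM between a called receptor and a receptor of the same family (for Chrm1, the oppositely called Chrm2) in each library (points), with the mean ± SD of each group (n = 4), on a separate y axis for each pair. AD1 OE libraries lie below control for 5 pairs and above it for Chrm1 over Chrm2, and the groups do not overlap in any of the 6 pairs. Every pair holds a gene called in these same libraries, so this separation is no further result.

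Cholecystokinin receptors. Cckar (ENSMUSG00000029193), the receptor through which cholecystokinin acts on vagal afferents, measured 7.75, 8.87, 6.85 and 8.42 CPM in AD1 OE and 3.28, 4.52, 4.91 and 4.74 CPM in control. All AD1 OE libraries lay above all control libraries. The log2 fold change was 0.86 ± 0.13 (interval 0.58 to 1.13, adjusted p = 0.0013). Both genes called higher were lost with sex as a covariate, where the adjusted p was 0.00845 for Cckar and 0.00794 for Chrm1. Within sexes the log2 ratios were 0.81 in males and 0.69 in females for Cckar, and 0.63 and 0.56 for Chrm1, each from groups of 3 and 1 embryos. The related Cckbr lay below 0.5 CPM and is no member.

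Gpr-named receptors. This is the largest group, with 56 genes, of which Gpr149 and Gpr179 were called lower and 0 higher. The lower share was 3.57%, against 1.78% of all tested genes, and rests on these 2 genes. Gpr149 (ENSMUSG00000043441), an orphan, measured 15.2, 14.4, 13.8 and 12.4 CPM in AD1 OE and 24.9, 25.5, 28.8 and 30.2 CPM in control. AD1 OE held 50.9% of the control level, with no overlap, a log2 fold change of -0.97 ± 0.08 and an adjusted p of 1.85e-05. Gpr179 (ENSMUSG00000070337), a class C orphan known from the depolarizing bipolar cells of the retina, measured 1.85, 1.83, 2.18 and 2.27 CPM against 3.24, 3.64, 4.01 and 3.42 CPM. Its log2 fold change was -0.82 ± 0.13 (adjusted p = 0.00187), and it kept the call in 10 of 17 alternative settings, while the 7 other lower genes kept theirs in all 17. In 1 of the 17, a looser threshold on the same fit, every called gene is kept by construction. Gpr158, a related class C orphan, had a log2 fold change of 0.01 and was not called.

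A further 3 Gpr-named genes had an adjusted p under 0.05 without being called. Gpr37, a receptor of glia and neurons linked to prosaposin, measured 23.7, 23.4, 22.7 and 22.9 CPM in AD1 OE and 29.8, 29.5, 26.1 and 27.7 CPM in control, a log2 fold change of -0.29 ± 0.06 (adjusted p = 0.00871). Gpr61, an orphan, had a log2 fold change of 0.24 ± 0.05 (adjusted p = 0.0239), at 25.2 to 28.2 against 21.9 to 23.2 CPM. With the sex score in the edgeR fit its adjusted p rose to 0.124. Gpr174, a lysophosphatidylserine receptor of lymphocytes, had 14, 0, 8 and 5 counts in AD1 OE and 10, 32, 35 and 31 in control, and with so few reads its log2 fold change of -2.07 ± 0.47 (adjusted p = 0.0217) is imprecise. It reached the limit of 0.5 CPM only through control (mean 0.924 CPM, against 0.201 CPM in AD1 OE), so the rule itself favoured a lower level in AD1 OE. With the sex score in the edgeR fit its adjusted p was 0.0746. Gpr17, a receptor of the oligodendrocyte lineage chosen after its values were seen, measured 2.58, 3.34, 2.91 and 3.63 CPM in AD1 OE and 12.9, 1.96, 3.18 and 6.44 CPM in control, and its log2 fold change of -0.96 ± 0.45 (adjusted p = 0.28) went with 1 high control library. The spinal cord marker list, of which 5 genes were tested, summed to 4.05 to 6.92 CPM in AD1 OE and 3.24 to 16.1 CPM in control, and its part in the values of Gpr17 was not tested. Gpr137b and Gpr137b-ps (log2 fold changes 0.23 and 0.19, neither called) are near-identical copies, between which reads cannot be placed with certainty.

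The other Gpr-named genes spread on both sides of 0, with 36 negative and 20 positive estimates in the group of 56 and a median log2 fold change of -0.03. At an unadjusted p under 0.05 the edgeR test gave 20 of the 56. The share of all tested genes at that limit was not counted. This and the other unadjusted counts given here therefore have no background to be set against. Of the 20, 5 kept an adjusted p under 0.05: 4 lower, among them Gpr174, a member only through its control level, and 1 higher. At that limit 733 of all 17721 tested genes were lower (4.14%) and 428 higher. The following were chosen after their values were seen. Gpr151, an orphan best known from the habenula and from injured sensory neurons, measured 1.24, 1.11, 0.995 and 1.15 CPM in AD1 OE and 0.630, 0.779, 0.825 and 0.819 CPM in control. Its groups did not overlap, but the log2 fold change of 0.56 ± 0.17 had an adjusted p of 0.0932. Gpr83 lay at 3.33 to 4.05 CPM in AD1 OE and 1.89 to 3.42 CPM in control (0.51 ± 0.16, adjusted p = 0.0953). Gpr139 (0.29 ± 0.09, adjusted p = 0.101) was likewise not called, and its libraries overlapped. On the other side, Gpr161, a receptor of the primary cilium that restrains hedgehog signalling, lay at 53.4 to 61.2 against 60.9 to 69.6 CPM (-0.21 ± 0.06, adjusted p = 0.0519). Gpr35, a receptor of nociceptors among other cells, measured 5.86 ± 0.304 and 5.83 ± 0.756 CPM, a log2 fold change of 0.00 ± 0.10.

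**Figure D3:**
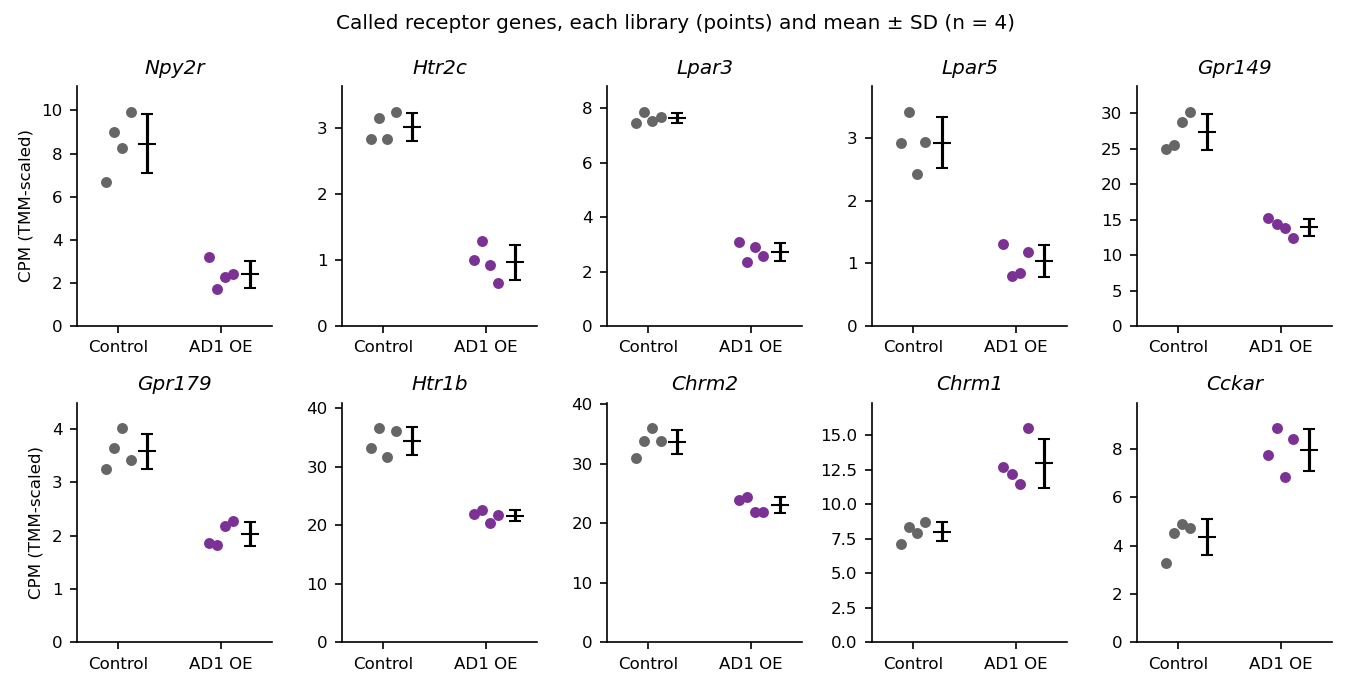
CPM of the 10 called receptor genes in each control (grey) and AD1 OE (purple) library, with mean ± SD (n = 4) beside the points. Each panel starts at 0 CPM. The groups are apart in all 10 panels, AD1 OE lying lower in the 8 panels from Npy2r to Chrm2 and higher for Chrm1 and Cckar. The genes were picked by the test on these same libraries, so this separation is no further result.

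Families with 0 calls. Adrenergic (7 genes), dopamine (2), P2Y (6), somatostatin (4) and sphingosine-1-phosphate (S1P, 3) receptors held 0 genes called in either direction. At an unadjusted p under 0.05 they held 1, 0, 1, 0 and 1 genes, and under DESeq2, as under the edgeR test, 0 were called. Their median log2 fold changes were 0.00, 0.07, -0.02, -0.03 and 0.00. P2ry1, a nucleotide receptor of sensory neurons, measured 30.3, 38.4, 32.2 and 35.3 CPM in AD1 OE and 36.9, 43.5, 47.0 and 38.3 CPM in control, with overlapping libraries (log2 fold change -0.28 ± 0.09, adjusted p = 0.0899). Adra1d, at about 1 CPM, came to -0.77 ± 0.22 (adjusted p = 0.0663), with libraries that did not overlap (at most 0.828 CPM in AD1 OE and at least 0.865 CPM in control). Precision was higher for the abundant genes. The interval for S1pr3 ran from -0.13 to 0.13, for Adra2a, a receptor by which noradrenaline dampens nociceptors, from -0.20 to 0.11, and for Drd1 from -0.12 to 0.31, on the log2 scale. Among the immune and glial nucleotide receptors, P2ry12, which marks microglia and related macrophages, lay at 8.91 to 10.6 CPM in AD1 OE and 8.22 to 10.4 CPM in control, and P2ry13 at 1.18 to 1.69 against 1.14 to 1.71 CPM. P2ry2, which answers to ATP and UTP, lay at 17.2 to 21 and 16.2 to 20.5 CPM. Sstr4, the most abundant somatostatin receptor per length (8.75 CPM per kb of exon), lay at 11.3 to 14.6 against 9.81 to 13.2 CPM. For P2ry2, P2ry12, P2ry13 and Sstr4 the groups overlapped. S1pr3, S1pr1 and S1pr2 stood at 23.5, 8.76 and 2.92 CPM per kb of exon, and S1pr4 and S1pr5 did not reach 0.5 CPM. P2ry1, P2ry2, P2ry12, P2ry13, Sstr4, S1pr1, S1pr2, Adra1d, Adra2a and Drd1 were chosen after their values were seen.

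The most abundant genes of the set, some of which (Gpr137, Gpr108, Gpr155) are not classical receptors, were not among those called. The 10 genes highest per length were Lpar1 (26.6), Gpr137 (24.1), S1pr3 (23.5), Gpr153 (20.9), Gpr180 (20.2), Gpr162 (15.4), Gpr108 (14.1), Gpr27 (11.6), Gpr155 (11.5) and Chrm4 (10.9 CPM per kb of exon, means over 8 libraries). Gpr137 shares an exon with Bad, S1pr3 with Gm32834 and Gpr155 with Gm13703 and Gm13709, so their counts are uncertain to that extent. Such sharing holds for 27 of the 104 genes. The edgeR test called 0 of the 10 genes, and Gpr153 alone passed an unadjusted threshold of 0.05, with a log2 fold change of 0.16 and an adjusted p of 0.109. In this order Gpr137 and S1pr3, Gpr153 and Gpr180, and Gpr27, Gpr155 and Chrm4 lay closer to their neighbour than the larger of their SDs over the 8 libraries, and the other neighbours lay farther apart. The called genes began at rank 22 with Htr1b, at 5.92 CPM per kb, followed by Gpr149 at 4.82 and Chrm2 at 4.69, while Htr2c was at rank 100 of 104 with 0.213 CPM per kb. By level, 3 of the 48 genes of at least 10 CPM, 3 of the 31 from 2 to 10 CPM and 2 of the 25 under 2 CPM were called lower. These are 6.25%, 9.68% and 8%, against 1.78% of all tested genes at any level. The median standard error of the log2 fold change was 0.06, 0.12 and 0.22 in these classes, so a change of a given size is less readily called among the low genes.

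**Figure D4:**
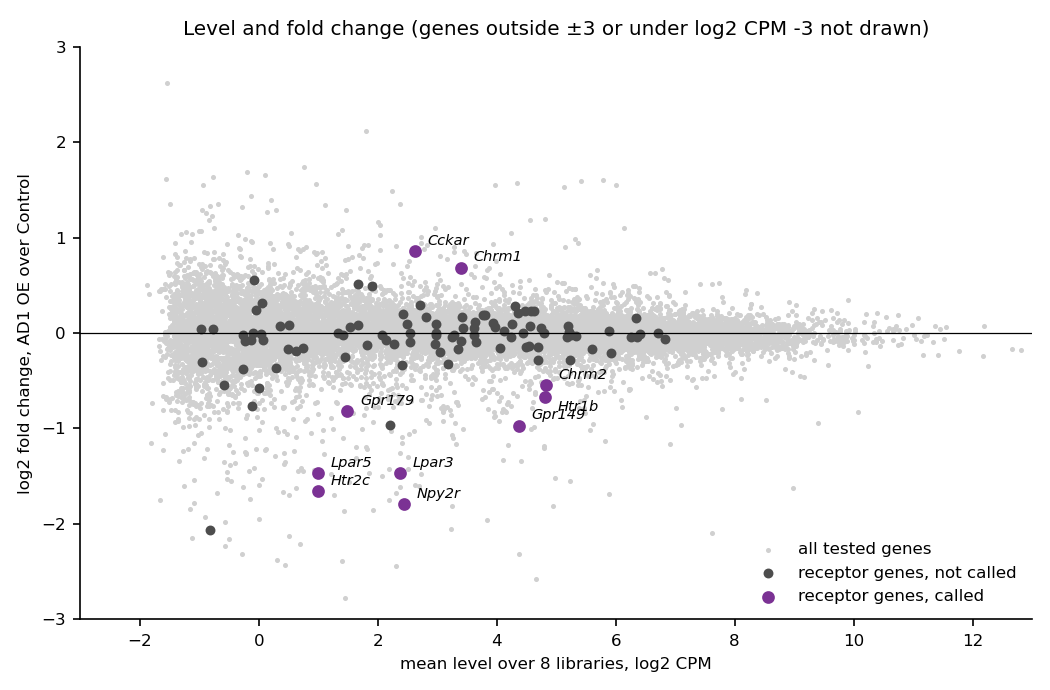
Mean level over the 8 libraries (x axis, log2 CPM) against the log2 fold change of AD1 OE over control (y axis) for all tested genes (light grey), receptor genes not called (dark grey) and called (purple, named). The called receptor genes range from 1.97 CPM (Lpar5) to 28.3 CPM (Chrm2), and the most abundant receptor genes, at the right, lie near 0.

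By G protein, assigned from general knowledge after the values were seen, 23 members act mainly through Gi/o, of which 3 were lower (Htr1b, Chrm2, Npy2r) and 0 higher. Of 11 that act mainly through Gq/11, 1 was lower (Htr2c) and 2 higher (Chrm1, Cckar), and of 5 that act through Gs 0 were called by edgeR (1 before adjustment, at 0.05). The median log2 fold changes were 0.00, -0.12 and 0.10. Over all tested genes 1.78% were lower and 0.784% higher, against 13% and 0% for Gi/o and 9.09% and 18.2% for Gq/11. The remaining 65 genes, most of them Gpr-named, were not assigned and held 4 lower calls (Lpar3, Lpar5, Gpr149, Gpr179). All LPA receptors were left unassigned, so the class counts do not include 2 of the called genes with a known ligand, and they give no direction for a class. No difference between these classes was tested.

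Genes that carry the signal of these receptors were counted in the same way. Of 67 tested genes for G protein subunits, RGS proteins, receptor kinases, arrestins and effectors, 1 was lower (1.49%, against 1.78% of all tested genes) and 2 were higher (2.99%, against 0.784%), and the median log2 fold change was -0.05. Rgs3, which speeds the turning off of G proteins, fell from 36.9 ± 0.680 to 29.1 ± 0.522 CPM (log2 fold change -0.34, adjusted p = 0.000426). Gng4, a G gamma subunit, rose from 65.2 ± 3.70 to 85.5 ± 3.71 CPM (0.39, adjusted p = 0.000351), and Rgs9 rose from 11 ± 1.53 to 16.5 ± 1.81 CPM (0.59, adjusted p = 0.00465), a call that was lost in 9 of 17 alternative settings (adjusted p up to 0.017).

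Among 39 tested genes that make, store or remove the ligands, 2 were lower (5.13%, against 1.78% of all tested genes) and 1 higher (2.56%, against 0.784%). Th, the rate-limiting enzyme of catecholamine synthesis and a marker of C low-threshold mechanoreceptors, rose from 21.2 ± 2.90 to 63.8 ± 3.45 CPM (log2 fold change 1.60, adjusted p = 6.09e-07). Its marker list did not rise with it: of 5 tested genes 1 was higher (Th) and 1 lower (Gfra2), with a median log2 fold change of -0.15. Ache, which breaks down acetylcholine, fell from 165 ± 9.16 to 130 ± 6.72 CPM (-0.34, adjusted p = 0.000849). Sgpp1, which removes phosphate from S1P, fell from 48.0 ± 1.76 to 39.3 ± 0.761 CPM (-0.29, adjusted p = 0.00154). Ache lost its call in 2 of the 17 settings, the replicate block and the sex score, and Sgpp1 in 5. Of 47 tested GPCRs outside the name rule, 4 were lower (8.51%: Ptger4, Tacr3, Crhr2, Hcrtr2) and 2 higher (4.26%: Adora2a, Hrh3), against 1.78% and 0.784% of all tested genes. The steepest of these were Crhr2, a receptor for urocortins (1.42 ± 0.322 against 4.27 ± 0.363 CPM, log2 fold change -1.56, adjusted p = 7.57e-05), and Tacr3, the neurokinin B receptor (-1.44, adjusted p = 0.00275). Tacr3 lost its call in 8 of the 17 settings, Ptger4 and Adora2a in 9 each and Hcrtr2 in 4. Hrh3, an inhibitory histamine receptor, came to 0.91 (adjusted p = 0.000757).

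**Figure D5:**
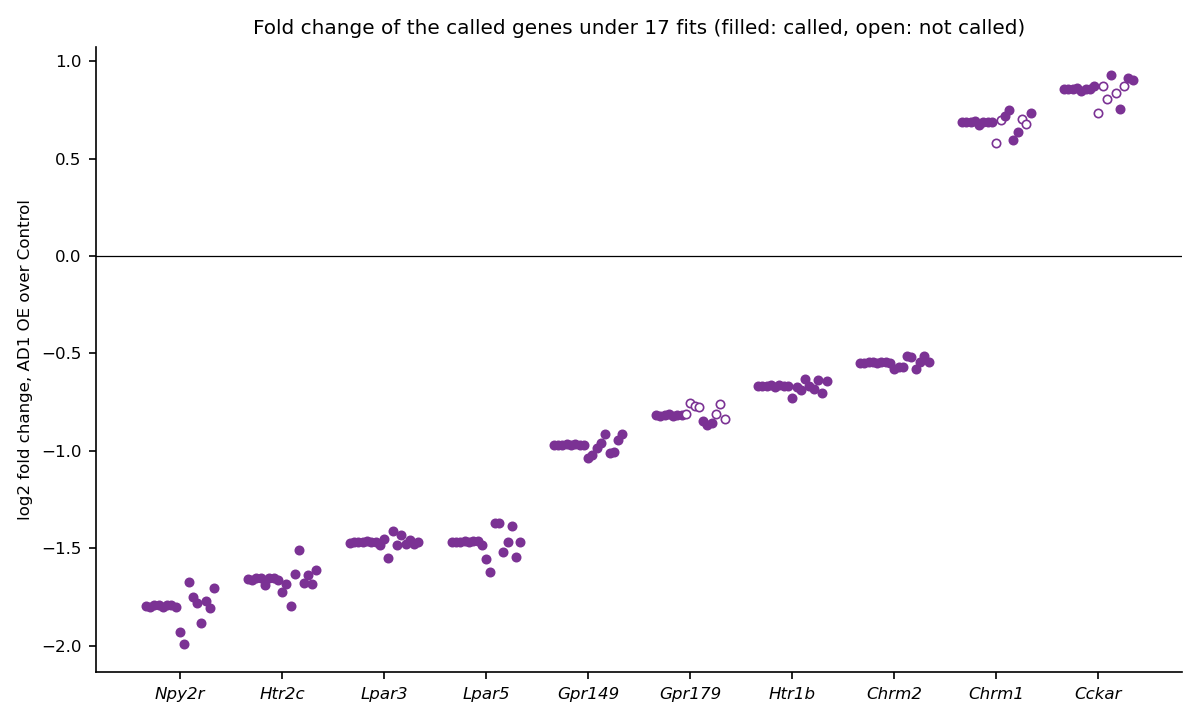
Log2 fold change of AD1 OE over control (y axis) for the 10 called receptor genes (x axis) under 17 fits, from left to right within a gene the reported fit, other scalings, tests, filters and covariates, and the fits without 1 library. Filled points are called and open points are not, and open points occur for Gpr179, Chrm1 and Cckar while the direction held in every fit shown.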

How the data were processed

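Poly(A) RNA of DRG from 8 embryos, with groups and replicate numbers from the labels, was sequenced with a stranded kit. Per the labels and methods, reads were demultiplexed with bcl2fastq 2.20.0.422, aligned to GRCm39 with STAR 2.7.8a and counted with featureCounts 2.0.1; the strand setting of counting is not given in the sources used here. The authors deposited raw counts per Ensembl gene for each library, neither normalized nor filtered. Symbols came from GENCODE M21 (52081 of 55414 IDs matched), as did exon lengths and shared exons, and since this annotation lies on GRCm38 no coordinates were taken from it.

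Differences between the groups were fitted with edgeR 4.0.16 (R 4.3.3). Genes were kept by filterByExpr, libraries were scaled by TMM, and a quasi-likelihood F test on genotype alone was adjusted over all 17721 tested genes by the Benjamini-Hochberg method. CPM used the scaled library sizes, except for the rule on members, which used unscaled totals. Standard errors were taken as the size of the log2 fold change over the root of F, and 95% intervals from the t distribution with the test's degrees of freedom. A call needed an adjusted p below 0.005 with a log2 fold change beyond 0.25 in size. These are the limits in the study's results for these groups, where they were applied to DESeq2 rather than edgeR values. The study's methods also name another pair of limits, which was not used. Alternatives were DESeq2 1.42.0, limma-voom (limma 3.58.1), RLE and upper-quartile scaling, other filters and thresholds, the replicate number as a block, a sex score as a covariate and leaving out each library. The 8 embryos are separate samples by their labels, and p-values measure the spread between them. The libraries held 22339059 to 44025625 counts, and the common biological coefficient of variation was 8.22%.

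Same-numbered AD1 OE and control libraries did not deviate together (correlations -0.01, -0.05, -0.04 and 0.31), so the numbers were not taken as pairs. No 2 libraries of a group agreed within sampling noise (chi-square per degree of freedom 4.37 to 12.1). Members and lists were chosen with earlier results of these data known. Named genes are the called members, members with an adjusted p under 0.05, the 10 highest per length, the 3 on either side of the level limit, called genes of the lists, Dach1, Avil and defining markers. Further genes were picked once their values were known, and this is said of each; it holds also for members given as relatives of a called gene (Htr1d, Htr2a, Npy1r, Npy4r, Npy5r, Lpar6, Chrm3, Chrm5, Gpr158, Gpr137b, Gpr137b-ps). Of the marker lists, 1 gene (Tafa4) had no match by symbol.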

Additional observations from a re-analysis of the deposited data

Results flagged for a closer look

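In 38 named genes, each with 2 groups of 4 libraries (76 groups), 2 groups held 1 library far from the other 3, where chance alone gives about 1 in 20 groups. Gpr153 measured 96.1 CPM in AD1 OE replicate 3 and 82.5 to 83.2 CPM in the other AD1 OE libraries. Gpr180 measured 39.9 CPM in control replicate 1 and 37.5 to 37.7 CPM in the other control libraries. Neither gene was called.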

How the results depend on the processing

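The 8 lower calls ranged from 7 to 10 over the 17 alternatives, and leaving out 1 library gave 7 to 8. The higher calls numbered 0 to 2 when 1 library was left out (0 without AD1 OE replicate 1 or control replicate 2) and 0 with the sex score. The called receptor genes, the called signalling, ligand and other GPCR genes, Gpr37, Gpr61, Gpr174, Gpr17, Dach1 and Avil kept their direction under every alternative that tested them; the direction of the other named genes under the alternatives was not examined. Lpar3, Lpar5, Npy2r, Htr1b, Htr2c, Chrm2 and Gpr149 were called in all 17. Among the 17, the adjusted p under 0.05 with no fold limit is a looser threshold on the reported fit. Every called gene passes it by construction, so that setting says nothing about stability. Cckar was lost with the sex score (adjusted p = 0.00845) and without AD1 OE replicate 1, 2 or 4 or control replicate 2, Chrm1 with the sex score (0.00794) and without AD1 OE replicate 1 or control replicate 2 or 3, and Gpr179 in 7 settings (adjusted p up to 0.0135). The causes were not tested.

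Gpr37 and Gpr174 were called under DESeq2 and without an expression filter. Under DESeq2, 6 signalling and 5 ligand genes were called, and 659 of all genes. Without a filter these were 5, 6 and 747, and at an adjusted p under 0.05 with no fold limit 10, 8 and 1161, with 10 other GPCRs. With the sex score 3 other GPCRs were called. Leaving out 1 library gave 2 to 5 other GPCRs, 2 to 4 ligand genes, 2 to 3 signalling genes and 289 to 420 of all genes (289 without AD1 OE replicate 1).

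With the replicate number as a block, 7 receptor genes were lower and 2 higher, 1 ligand gene, 2 other GPCRs and 348 of all genes were called, and Gpr179 lost its call. The numbers did not pair the libraries, so this is given as a value only. Low genes such as Gpr174 and Htr2c are limited by depth, with 0 to 14 and 18 to 44 counts per AD1 OE library, and counting intervals would cover counting error only.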
